A study of Mus musculus with 5 samples.

Results

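Mouse genes whose symbol runs from Zfp900 to Zfp999 were examined in colon spheroids. Members were all rows whose symbol is Zfp9 followed by exactly 2 digits, which gave 54 of the 32793 gene rows in the tables. Zfp955a and Zfp955b carry a letter and fall outside. A further 304 rows have a Zfp symbol with another number. The range was chosen by measured values, those of Zfp976 in NDD and WT libraries (described below), so differences between these groups are given for the members as descriptions, and counts of members called by a test support nothing. Colon spheroids are three-dimensional cultures of colon epithelium. RNA from 5 cultures was sequenced in bulk. The 2 NDD cultures expressed the dimerization-deficient alleles Notch1DD and Notch2DD, which code for receptors whose intracellular domains cannot pair on DNA; the labels do not say whether wild-type alleles were also present. The other 3 cultures were wild type (WT). All 5 came from mice of mixed background, mostly C57Bl6 with a part of FVB, and the labels do not say how much of either each culture carried, nor whether replicates came from separate mice. Differences between replicates therefore measure the spread between these cultures.

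Most genes with these symbols belong to the C2H2 zinc finger family. Their proteins bind DNA through a row of fingers, each a short fold that holds a zinc ion between a pair of cysteines and a pair of histidines. Many also carry a KRAB domain at their start, which recruits the corepressor TRIM28 and with it the histone methyltransferase SETDB1, and a large share of the studied ones silence retrotransposons. The genes arose by repeated local duplication and lie in clusters that differ in content between mouse strains. Neighbouring copies can be nearly identical, which makes it hard to assign a sequencing read to a single gene.

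The label was checked against sequence. In the longest open reading frame of the GENCODE M21 transcripts, 52 of the 54 members held at least 1 finger (cysteine, 2 residues, cysteine, 12 residues, histidine, 3 to 5 residues, histidine), with 3 to 21 fingers in those 52 and a median of 11 over all 54. Zfp957 and Zfp972 held none by this pattern. A run of residues typical of the KRAB A box was found within the first 120 residues of 40 members (74.1%). The same run was found in 183 of 441 other coding genes with 5 or more fingers (41.5%) and in 203 of all 21824 other coding genes (0.930%). Of the 54 members, 35 lie in 6 runs in which neighbouring members are at most 1.5 Mb apart, and 19 stand alone. The largest runs are on chromosome 17 (10 members), chromosome 4 (10 members) and chromosome 2 (7 members).

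The promoters of the members on which the results below turn are shown first, because they share a stretch of sequence. RefSeq (GRCm38.p6) gave a promoter window for 49 of the 54 members. In the 250 bases before each start, the 5 letters CCAAT, on either strand, occurred in 44 of 57 member windows (77.2%) and in 33.8% of all 32851 windows. The letters TATAAA occurred in 0 of the 57 windows and in 12.4% of all windows. The motif GTGGGAA of RBPJ, the DNA-binding partner of Notch, occurred in 5 of the 57 (8.77%) and in 5.42% of all windows. None of the 8 members shown next held it in this window. Each line gives 84 bases, 5′ to 3′ along the gene. The capitals mark CCAAT and a run of 14 bases that all 8 promoters share, CTGCCAGTCAGAAG.
Zfp976: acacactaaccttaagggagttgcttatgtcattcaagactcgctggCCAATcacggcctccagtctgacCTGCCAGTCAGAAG
Zfp975: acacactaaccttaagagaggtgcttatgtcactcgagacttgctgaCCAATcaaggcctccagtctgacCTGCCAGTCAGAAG
Zfp970: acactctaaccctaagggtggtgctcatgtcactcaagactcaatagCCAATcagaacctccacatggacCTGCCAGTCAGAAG
Zfp971: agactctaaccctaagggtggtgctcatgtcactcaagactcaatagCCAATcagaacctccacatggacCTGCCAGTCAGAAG
Zfp972: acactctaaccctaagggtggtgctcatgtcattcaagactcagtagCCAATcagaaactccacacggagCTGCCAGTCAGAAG
Zfp967: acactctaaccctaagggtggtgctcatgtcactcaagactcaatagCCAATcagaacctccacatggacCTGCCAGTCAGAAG
Zfp973: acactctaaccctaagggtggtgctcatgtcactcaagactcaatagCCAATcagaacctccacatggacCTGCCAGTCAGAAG
Zfp965: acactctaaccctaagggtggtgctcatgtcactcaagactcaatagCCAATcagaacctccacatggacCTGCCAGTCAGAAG

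These stretches lie at chr7:42642620-42642703 (Zfp976, minus strand) and chr7:42692794-42692877 (Zfp975, minus strand). For both genes the start used lies inside the gene positions given below. The stretch of Zfp976 thus lies within that gene, and the stretch of Zfp975 overlaps the 5′ end of its gene. Those of chromosome 2 lie at chr2:177464626-177464709 (Zfp970), chr2:178023159-178023242 (Zfp971), chr2:177925701-177925784 (Zfp972, minus strand), chr2:176520893-176520976 (Zfp967), chr2:176670437-176670520 (Zfp973) and chr2:175469900-175469983 (Zfp965). The 250-base windows were aligned in pairs, over 158 bases (Zfp975 and Zfp973) to 250 bases (Zfp965 and Zfp971). Over 189 aligned bases the promoters of Zfp975 and Zfp976 were identical at 92.6%. Those of Zfp965, Zfp967, Zfp970, Zfp971 and Zfp973 were identical at 97.1% or more in each pairing, and that of Zfp972 at 80.6% to 82.6% with each of these. Between the chromosome 7 and chromosome 2 promoters identity was lower, from 68.8% to 79.0%. The 14-base run was found in 0.116% of all windows, which belong to 37 genes, 9 of them members. Zfp931, a member of the chromosome 2 run left out of the 8 shown, lacked it, with another base at its last position. Zfp936 on chromosome 7, also not shown, held it. The run was found by comparing promoters after the values below had been seen, and it is a description of sequence, not of a binding site.

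The level of the members was low and spread widely. Levels are given in TPM (a share of all transcripts in the library, corrected for transcript length), so they can be compared between genes. In the WT libraries the median over the 54 members was 2.46 TPM, against 3.16 TPM for the other Zfp-numbered genes and 16.4 TPM for all 13501 genes that entered the fit. The medians of the members and of the other Zfp-numbered genes include genes too low to enter the fit. The last median leaves such genes out, so part of its distance comes from that choice. Only 3 members had a WT mean of 10 TPM or more, 38 lay from 1 to under 10 TPM and 13 lay under 1 TPM. By WT mean Zfp946 was highest, at 12.98 and 14.02 TPM in NDD and 14.67, 13.01 and 9.48 TPM in WT. In the NDD libraries Zfp944 was higher, at 14.51 and 16.46 TPM. Zfp961 was at 11.77 and 11.34 TPM in NDD and 11.69, 10.63 and 11.81 TPM in WT. These 2 genes did not differ in level beyond the spread between WT libraries (12.4 ± 2.65 TPM for Zfp946, 11.4 ± 0.649 TPM for Zfp961, SD, n = 3). In WT, Zfp944 followed at 10.6 ± 1.99 TPM and Zfp954 at 9.54 ± 1.19 TPM, again within each other's spread. Zfp948, Zfp982, Zfp984 and Zfp932, a repressor of endogenous retroviruses in embryonic stem cells, completed the 8 most abundant, with WT means from 7.32 TPM (Zfp948) to 6.32 TPM (Zfp932).

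**Figure D1:**
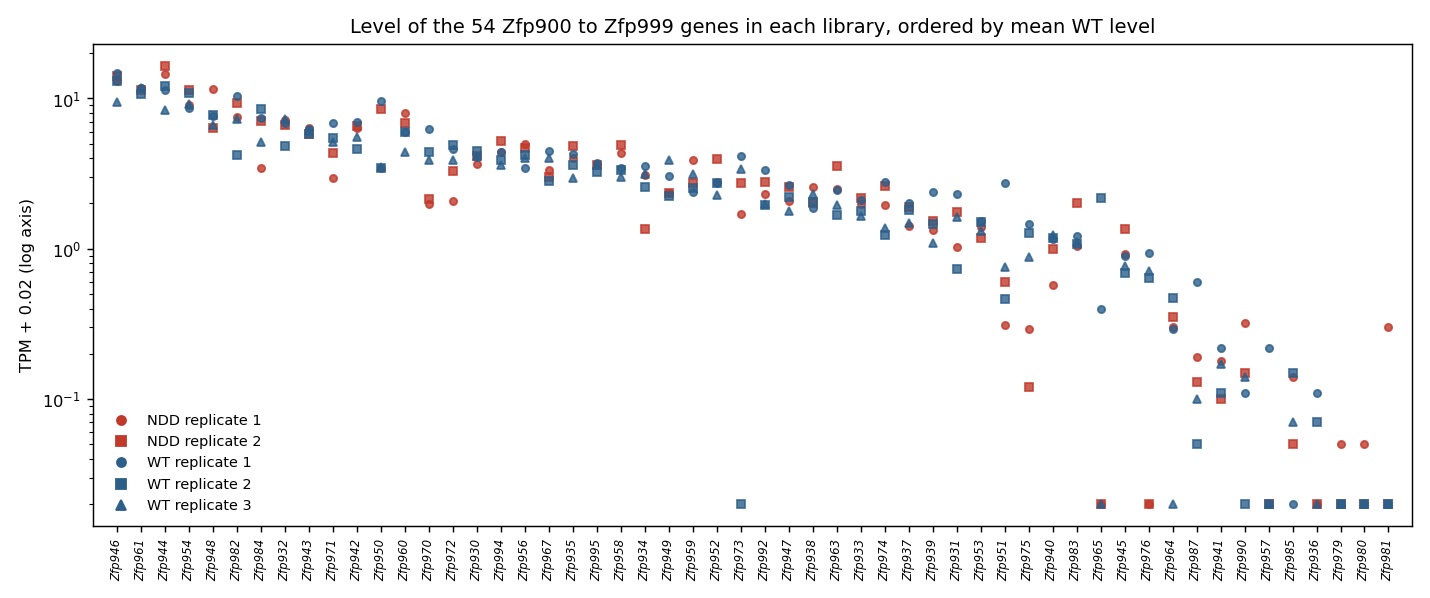
Level of all 54 members in each library, as TPM + 0.02 on a log axis, ordered by mean WT level from Zfp946 on the left; colour gives the group and symbol the replicate. Points at the bottom are libraries listed at 0 TPM. Zfp976 is at 0 in both NDD libraries, and Zfp973 and Zfp964 are each at 0 in a single WT library.

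Presence or absence was read from the counts, which are the authors' estimates per gene rounded to whole numbers. Of the 54 members, 39 had at least 10 counts in each of the 5 libraries. Another 3 (Zfp936, Zfp979 and Zfp980) had at most 3 counts in every library. An observed count of 0 allows a true level of up to 3 counts at 95% confidence (0.129 to 0.155 CPM, counts scaled to library size, in these libraries), so a level of 0 is not shown for them. The limit covers counting error only. In a further 6 members the call differed between libraries, with at least 10 counts in 1 library and at most 3 in another: Zfp964, Zfp965, Zfp973, Zfp976, Zfp981 and Zfp987. The remaining 6 (Zfp941, Zfp951, Zfp957, Zfp975, Zfp985 and Zfp990) lay between these rules. By library, 42 and 41 members had at least 10 counts in NDD and 44, 44 and 43 in WT. Zfp976 was the only member absent from both libraries of a group and present in all libraries of the other.

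Counts of Zfp976 were 0 and 0 in NDD against 52, 42 and 46 in WT. It is a KRAB zinc finger gene with 18 fingers at chr7:42609514-42644267. Here and for every gene below, whether groups overlap is judged on CPM unless another scale is named, so raw counts can differ from it where libraries differ in size. The 2 NDD libraries stood together at 0 and the 3 WT libraries stood together at 2.17 ± 0.456 CPM (SD, n = 3). Against the limit of 3 counts per library, the NDD level was at least 16.0-fold lower. Zfp975, a neighbouring member at chr7:42660105-42692810 with 14 fingers, had 11 and 4 counts in NDD and 50, 53 and 36 counts in WT. Its CPM was 0.334 ± 0.208 in NDD (SD, n = 2) and 2.15 ± 0.544 in WT (SD, n = 3), with no overlap. The log2 fold change, NDD over WT, was -2.66 (SE 0.57). That fold change ranged from -3.49 without NDD replicate 1 to -2.13 without NDD replicate 2. It was -0.88 on log2(TPM + 1) and -2.21 on log2(TPM + 0.1). Zfp936, the third member on this stretch of chromosome 7, had 0 and 0 counts in NDD and 3, 2 and 0 in WT, too few to compare.

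Zfp976 and Zfp975 share part of their transcript sequence. Of the distinct 31-base sequences in the transcripts of Zfp976, 22.9% also occur in Zfp975 and 35.7% in any other annotated gene. For Zfp975, 24.9% also occur in Zfp976 and 46.1% in any other gene. Their sum was 11 and 4 counts in NDD and 102, 95 and 82 counts in WT, a description only, since it includes Zfp976, whose values chose the range. The gene that shares most with either after these, Gm2381, had 0 and 1 counts in NDD and 1 count in each WT library.

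**Figure D2:**
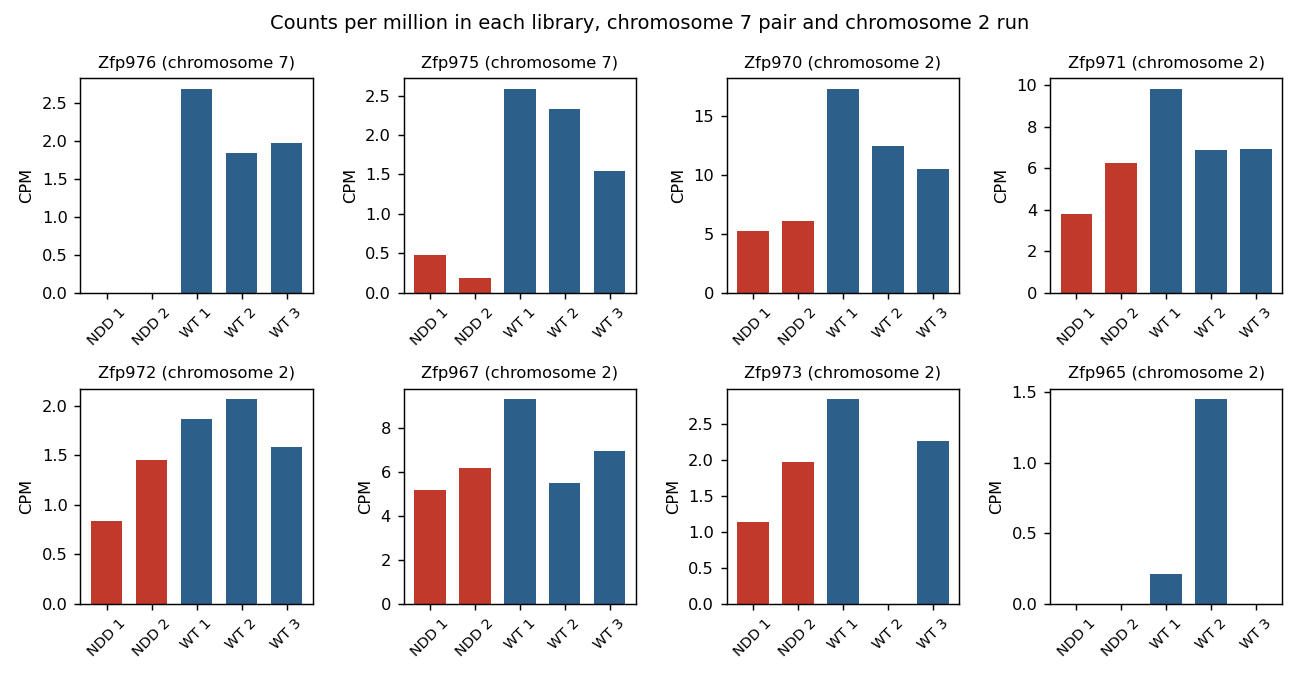
CPM of 8 members in each library, NDD in red and WT in blue, with a separate vertical axis starting at 0 for each gene. Zfp976 and Zfp975 are near 0 in NDD, Zfp970, Zfp971 and Zfp972 are lower in both NDD libraries than in every WT library, and Zfp973 and Zfp965 swap between WT replicate 2 and the other WT libraries.

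The run of 7 members near the end of chromosome 2 (chr2:175470025-178078425) had a lower summed level in both NDD libraries (17.2 and 23.8 CPM) than in the WT libraries (43.6, 29.0 and 29.8 CPM). Among the tested members of the run the largest log2 fold change in size was that of Zfp970, with 121 and 131 counts in NDD and 335, 283 and 245 counts in WT. Its CPM was 5.71 ± 0.597 in NDD (SD, n = 2) and 13.4 ± 3.52 in WT (SD, n = 3). The log2 fold change was -1.23 (SE 0.28). All 5 fits that left out a library kept it between -1.38 and -1.01. Zfp971 had 87 and 134 counts in NDD and 190, 156 and 162 in WT (log2 fold change -0.64, SE 0.32). Its NDD libraries differed from each other by more than its closest NDD and WT libraries (6.27 CPM in NDD replicate 2, 6.86 CPM in WT replicate 2). Zfp972, whose annotated transcripts code for a short protein without fingers, had 19 and 31 counts in NDD and 36, 47 and 37 in WT. Groups did not overlap for Zfp970, Zfp971 and Zfp972. They overlapped for Zfp967 (119 and 132 counts against 180, 125 and 162), Zfp931 (22 and 38 against 43, 16 and 36) and Zfp973.

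Over the run, 6 of 6 tested members had a log2 fold change below 0 (median -0.50), where 6815 of all 13501 tested genes did. The 12 other tested genes that lie between these members, mostly Gm genes, were also mainly below 0: 11 of 12 (median -0.80) and 7 of 12 were lower in NDD without overlap, where 16.2% of all tested genes were. Without NDD replicate 1, 9 of these 12 were below 0 (median -0.53) and 1 was higher without overlap, and without NDD replicate 2 the median was -1.08. Of the 12, Gm14296 had 136 and 155 counts in NDD and 291, 312 and 287 in WT, and Gm14308 had 304 and 364 against 599, 553 and 648. Summed over the 7 members and 12 other genes, a sum that does not change when reads move between these genes, the level was 97.6 and 122.1 CPM in NDD and 190.9, 152.0 and 148.7 CPM in WT. The groups did not overlap in this sum. It was 1.49-fold higher in WT on the means. The sum is not closed to reads of similar genes outside it. It leaves out Gm14440, which holds 36.5% of the 31-base sequences of Zfp970. Gm14440 had 163 and 166 counts in NDD and 181, 110 and 125 in WT (log2 fold change 0.19, with overlap). Zfp966 and Zfp968 each hold 100% of the 31-base sequences of Zfp967. Neither has a row in the tables, so they are in neither the members nor the sum. Where reads from them were counted was not tested. The count of members depended on single libraries: 4 of 6 were below 0 without NDD replicate 1 (median -0.28), without WT replicate 1 (median -0.29) and with the replicate number as a block, and 5 of 6 on log2(TPM + 1). The run lies on the same chromosome as Notch1 (chr2:26457902-26503822), 149.0 Mb away. Notch2 is on chromosome 3. Whether these positions have a part in the values of the run was not tested.

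Reads in this run can be hard to assign to a single copy. Sharing is given over all GENCODE M21 genes, also those with no row in the tables, such as Zfp966 and Zfp968. How much of it touches these counts was not tested. Every 31-base sequence of Zfp967 occurs in another gene (100%), as do 97.9% of those of Zfp965, 90.5% of those of Zfp973, 67.9% of those of Zfp970 and 69.5% of those of Zfp971. Zfp973 had 26 and 42 counts in NDD and 55, 0 and 53 in WT, while Zfp965 had 0 and 0 in NDD and 4, 33 and 0 in WT. Their sum was 26 and 42 counts in NDD and 59, 33 and 53 in WT, with no library at 0. Zfp965 shares 83.7% of its 31-base sequences with Zfp973.

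Genes with the 14-base promoter run were compared outside these runs as well. Of the 37 genes, 22 were in the tables and 19 entered the fit. Of these 19, 16 lie in the chromosome 2 and chromosome 7 runs and all 16 had a log2 fold change below 0 (median -0.78), 11 of them without overlap, where 6815 of all 13501 genes were below 0 and 16.2% were lower without overlap. The other 3, Gm14440, Gm32856 and Klf9, had log2 fold changes from 0.19 to 0.48, all with overlap. Gm14440 is also on chromosome 2, just before the first member of the run and so close to it. Members of the runs were chosen with these values known, so the 16 are a description. They include Zfp976, whose values chose the range. They also include genes of the chromosome 2 run, where the number below 0 depended on single libraries (above). Tested genes of that run not found to hold the 14 bases are left out of the 16. These are Zfp931, Gm6710, Gm14296 and Gm14327, with log2 fold changes of -0.12, 0.15, -1.05 and -0.73.

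**Figure D3:**
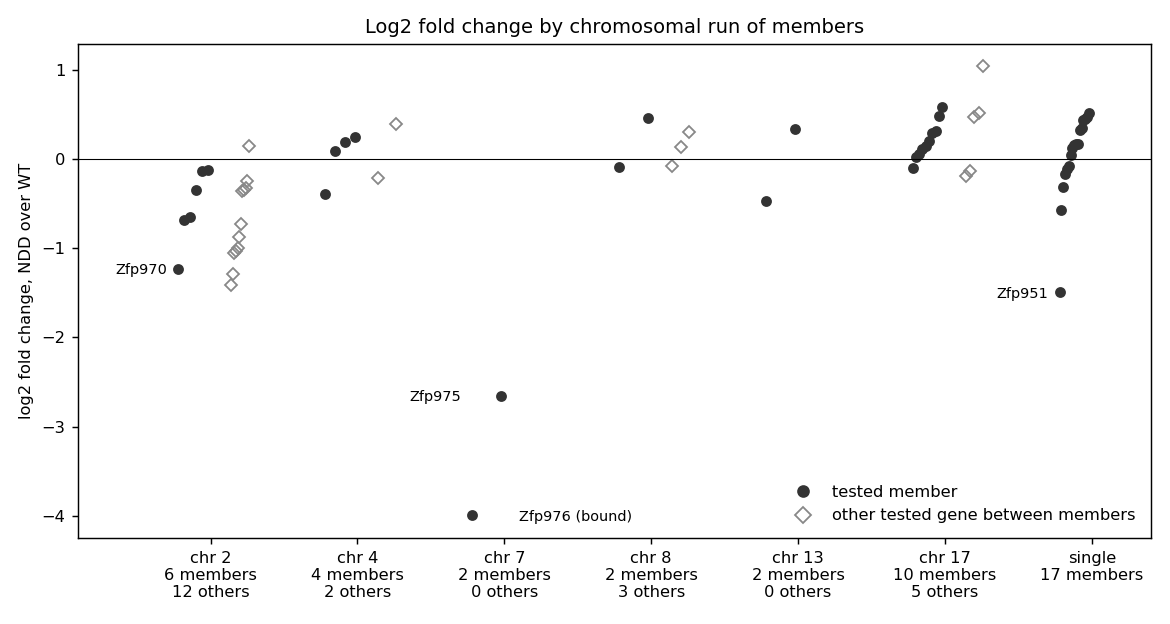
Log2 fold change (NDD over WT) of the tested members (filled circles) and of the other tested genes lying between them (open diamonds), by chromosomal run, with members that stand alone at the right. Zfp976 is drawn at its lower bound of 16.0-fold. All tested members of the chromosome 2 and chromosome 7 runs lie below 0, as do the other genes there except Gm6710, and 9 of 10 members of the chromosome 17 run lie above it.

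The chromosome 17 run (chr17:21565816-22867309) did not share this direction. Of its 10 members, 9 had a log2 fold change above 0, with a median of 0.18 and a range of -0.10 to 0.59. Of all 13501 tested genes, 6815 were below 0. Single libraries turned the sign of some members. Zfp946 was at -0.02 without WT replicate 3, and Zfp948 at -0.14 without NDD replicate 1. Zfp944, the member below 0, was at 0.03 without WT replicate 1. On CPM, Zfp945 alone of the 10 was without overlap, at 79 and 118 counts in NDD and 66, 61 and 67 in WT. Of all tested genes, 15.8% were higher in NDD without overlap on CPM. The summed level of the run overlapped between groups, with NDD at 96.8 ± 5.85 CPM (SD, n = 2) against 85.0 ± 10.5 CPM for the WT libraries (SD, n = 3). On TPM it did not overlap, at 63.7 and 63.8 in NDD and 59.8, 54.2 and 46.8 in WT, and Zfp944 and Zfp994 were then also higher in NDD without overlap. Zfp943 was among the steadiest of all members, at 225 and 203 counts in NDD and 190, 212 and 217 in WT. In the chromosome 4 run, 6 of 10 members were too low to enter the fit, and the other 4 overlapped between groups, with log2 fold changes from -0.39 (Zfp984) to 0.25 (Zfp982). Both depended on single libraries: leaving out NDD replicate 2 put Zfp984 at -1.07 and leaving out NDD replicate 1 put it at 0.07, and Zfp982 was at 0.60 without WT replicate 1 and -0.01 without WT replicate 2. Zfp992 had 110 and 136 counts in NDD and 139, 98 and 98 in WT, with overlap. On chromosome 8, beside Zfp964, Zfp930 had 142 and 161 counts in NDD and 136, 178 and 163 in WT, with overlap. Zfp963 was at 2.84 and 4.17 CPM in NDD and 3.16, 2.20 and 2.27 CPM in WT, with overlap, while its TPM was higher in both NDD libraries (2.46 and 3.53) than in WT (2.45, 1.66 and 1.94).

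Zfp960, alone on chromosome 17 at chr17:17064103-17089631, had 274 and 238 counts in NDD and 175, 213 and 154 in WT, without overlap. This gene shares 86.8% of its 31-base sequences with Zfp97, a gene outside the range. Zfp97 had 53 and 39 counts in NDD and 114, 124 and 126 in WT, the opposite direction. Their sum was 327 and 277 counts in NDD and 289, 337 and 280 in WT, at 13.6 ± 0.937 CPM (SD, n = 2) and 13.9 ± 1.66 CPM (SD, n = 3). In the sum the groups overlapped.

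Zfp944 differed between the tables. Its counts overlapped between groups, at 158 and 163 in NDD and 177, 162 and 167 in WT. Its TPM was 14.51 and 16.46 in NDD and 11.42, 12.1 and 8.37 in WT, higher in NDD without overlap. The ratio of TPM to CPM, which depends on the transcript length used and on a factor of each library, varied 1.85-fold over the libraries for Zfp944 and 1.08-fold for Zfp943. It varied by more than 1.2-fold in only 3 other members.

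Of the 54 members, 43 had enough counts to enter the fit of all genes with edgeR, and 1 of these (Zfp976) passed the filter on low counts through the WT libraries alone. At an adjusted p under 0.05, 0 of the 43 were called, where 0.0889% of all tested genes were (12 of 13501), 0.0222% lower and 0.0667% higher in NDD. At an unadjusted p under 0.05 there were 3, where 11.2% of all genes were. At an adjusted p under 0.05 DESeq2 called 3 members among 361 of 19180 genes, and edgeR without NDD replicate 1 called 2 among 1207 of 14007. Each of these counts above 0 includes Zfp976, whose values chose the range, and so none is evidence on the members. The 19180 genes are those with an unadjusted p from DESeq2, which can leave some of them without an adjusted p. Groups did not overlap in 10 of the 43, 6 lower and 4 higher in NDD, where 16.2% of all genes were lower and 15.8% higher. Zfp976 helped to choose the range, so nothing is read from these shares. Groups did not overlap with a log2 fold change of at least 1 in size in 3 members (Zfp970, Zfp975 and Zfp976), all lower, where 5.66% of all genes did, 2.23% lower and 3.43% higher. The median log2 fold change of the 43 was 0.10, against -0.0047 over all genes, and the other 264 tested Zfp-numbered genes had a median of 0.11. The median of the members was -0.10 without NDD replicate 2, 0.24 without WT replicate 1, 0.02 without WT replicate 2 and 0.01 without WT replicate 3. With 4 libraries the groups fail to overlap more easily, and of the same 43 members 8 were then lower and 16 higher without NDD replicate 1. Leaving out NDD replicate 2 gave 13 lower and 8 higher, leaving out WT replicate 1 gave 6 and 13, leaving out WT replicate 2 gave 11 and 5, and leaving out WT replicate 3 gave 7 and 7. The share of all genes without overlap was then 76.6%, 53.5%, 47.6%, 44.9% and 36.2%.

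Besides the 6 lower members (Zfp940, Zfp970, Zfp971, Zfp972, Zfp975 and Zfp976), the 4 higher were Zfp945, Zfp956, Zfp958 and Zfp960, with log2 fold changes from 0.35 to 0.59. Zfp940 was at 0.831 and 1.55 CPM in NDD and 1.66, 1.85 and 1.80 CPM in WT, close to overlap, and its raw counts overlap (33 in NDD replicate 2, 32 in WT replicate 1). Zfp956 had 178 and 170 in NDD and 106, 155 and 145 in WT, and Zfp958 had 129 and 147 against 88, 104 and 92.

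**Figure D4:**
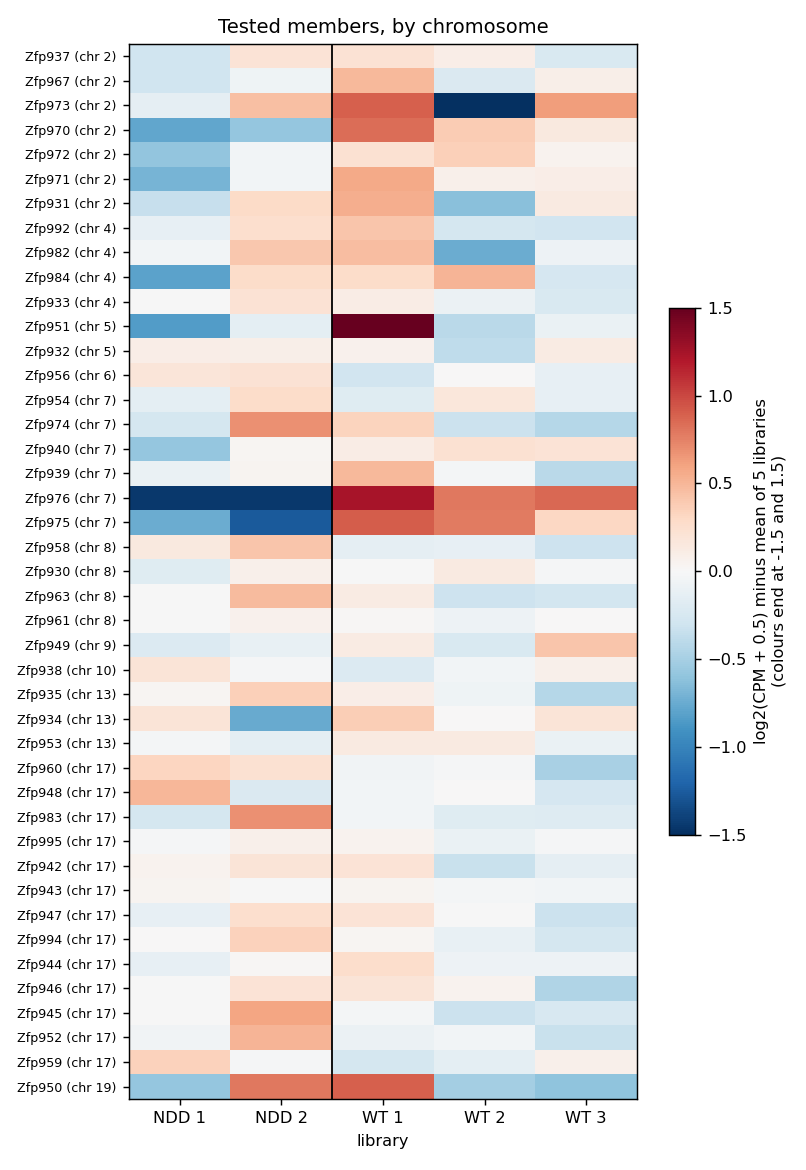
Each of the 43 tested members (rows, by chromosome and position) in each library (columns), as log2(CPM + 0.5) minus the gene's mean over the 5 libraries; red is above and blue below, and colours end at -1.5 and 1.5. Zfp976, Zfp975 and Zfp970 are blue in both NDD libraries and red in all WT libraries, while Zfp951 and Zfp950 stand out by library and not by group.

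Several members differed between libraries in a way that the groups do not follow. Zfp951, a KRAB zinc finger gene on chromosome 5, had 77 counts in WT replicate 1 and 9, 20, 16 and 23 counts in NDD replicates 1 and 2 and WT replicates 2 and 3. Its log2 fold change of -1.49 (SE 0.91) rested on that library and was -0.35 without it. Zfp950 on chromosome 19 had 355 counts in NDD replicate 2 and 346 in WT replicate 1, against 140, 146 and 140 in NDD replicate 1 and WT replicates 2 and 3. The libraries thus fell into a high and a low set that each held both genotypes, 2.98-fold apart in CPM at the extremes. Zfp984 was lowest in NDD replicate 1 (118 counts) and highest in WT replicate 2 (309 counts), with 246, 221 and 182 counts in the others. Zfp987 had 18 counts in WT replicate 1 and 1 to 6 elsewhere, and Zfp981 had 11 counts in NDD replicate 1 and 0 elsewhere. At these counts a difference in the last 2 genes is close to the limit of detection.

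Among tested genes with a WT mean of 2 to 24 CPM, the highest library was a median of 1.67-fold above the lowest for the 37 members and 1.71-fold for all 4349 genes. WT replicate 1 was the highest library for 16 of the 43 tested members and NDD replicate 2 for 15. WT replicate 3 was the lowest for 14 and NDD replicate 1 for 12.

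Genes for proteins through which KRAB zinc fingers act had a median of 30.9 TPM in WT, from Atf7ip2 at 1.86 TPM and Dnmt3b at 2.85 TPM upwards. All 36 genes of a hand-made list of corepressors, heterochromatin proteins and DNA methylation factors entered the fit, and edgeR called 0 of them at an adjusted p under 0.05. The number with an unadjusted p under 0.05 was 0, where 11.2% of all genes had one, DESeq2 called 0, and edgeR called 8 without NDD replicate 1, in the fit that called 1207 of 14007 genes. Trim28, the KRAB corepressor itself, had 8405 and 4495 counts in NDD and 7873, 8546 and 10866 in WT (log2 fold change -0.53, SE 0.25). Its raw counts overlapped between groups, but on CPM it was lower in NDD without overlap. The SUMO protein Sumo2 was the most abundant of the list at 411 ± 50.8 TPM in WT (SD, n = 3), followed by Trim28 at 221 ± 28.7 TPM. Setdb1, the methyltransferase that TRIM28 recruits, had 1336 and 1101 counts in NDD and 1149, 1254 and 1448 in WT, with overlap. The median log2 fold change of the list was -0.21, 32 of 36 were below 0, where 6815 of all 13501 genes were, and 8 (22.2%) were lower in NDD without overlap, where 16.2% of all genes were. NDD replicate 2 was the lowest library for 29 of the 36. Without it the median was -0.03, with 20 of 36 below 0, and without NDD replicate 1 it was -0.44. Uhrf1, which guides maintenance DNA methylation and is high in dividing cells, had 4058 and 887 counts in NDD and 3335 to 4070 in WT.

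A list of 15 studied KRAB zinc finger genes outside the range was used for comparison. Of these, 13 entered the fit, 0 were called by edgeR at an adjusted p under 0.05, 3 had an unadjusted p under 0.05 (23.1%, where 11.2% of all genes did), DESeq2 called 1, and edgeR called 1 without NDD replicate 1. Over the 13 the log2 fold change had a median of 0.17. Zfp568, which silences a placental transcript of Igf2 in the embryo, had 315 and 224 counts in NDD and 646, 532 and 872 in WT, without overlap (log2 fold change -1.37, SE 0.26). Rsl1, a regulator of sex-biased liver genes, had 38 and 40 counts in NDD and 94, 82 and 84 in WT, also without overlap (log2 fold change -1.18, SE 0.33). Zfp68, Zfp157 and Zfp429 were higher in NDD without overlap, with log2 fold changes of 0.36, 0.18 and 0.17. These are 2 lower (15.4%) and 3 higher (23.1%) of 13, where 16.2% and 15.8% of all genes were. Zfp809, which recognises the primer binding site of murine leukaemia virus, was the most abundant of the list at 17.1 ± 2.07 TPM in WT (SD, n = 3), followed by Zfp110 at 16.0 ± 0.626 TPM and Zfp445, a guardian of imprints, at 13.4 ± 2.92 TPM. Their groups overlapped.

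The libraries held 19192389 to 23064000 counts and 16534 to 16824 rows with a count. Spearman correlations over the 13501 genes were 0.984 to 0.987 between WT libraries and 0.966 between the NDD libraries, and NDD replicate 1 correlated with the WT libraries at 0.973 to 0.985, above its value with NDD replicate 2. NDD replicate 2 correlated with WT replicate 3 at 0.939 and so stood apart from the rest. All 13 markers of colon epithelium entered the fit, 7 of them higher in NDD without overlap, where 15.8% of all genes were, with summed levels of 16890 and 13454 TPM in NDD and 13819 to 14975 TPM in WT. Among them Krt20, of mature surface cells, had 1373 and 2787 counts in NDD and 677, 804 and 115 in WT, and the chloride transporter gene Slc26a3 had 3587 and 5535 against 2161, 1323 and 464. Of 10 fibroblast markers 1 entered the fit (Pdgfrb), and the list summed to 3.23 and 8.34 TPM in NDD and 1.27 to 2.43 TPM in WT, nearly all of it Pdgfrb (mean of 5.58 TPM in NDD and 1.57 TPM in WT), with Lum, Thy1 and Dpt at 0 counts. Of 10 immune markers 3 entered it, and the list summed to 3.07 and 4.21 TPM in NDD and 4.9 to 7.97 TPM in WT, with Cd4 and Cd8a at 0 counts and Ptprc at no more than 2. The 3 were Csf1r, Cd68 and Itgam, all with a log2 fold change below 0. Csf1r had 1 and 8 counts in NDD and 11, 23 and 70 in WT. Cd68 had 37 and 50 against 50, 81 and 87. Csf1r and Cd68 were lower in NDD without overlap, where 16.2% of all genes were. Of 6 endothelial markers 1 entered the fit, Vwf, at 40 and 157 counts in NDD and 42, 63 and 59 in WT. The endothelial list summed to 0.85 and 2.96 TPM in NDD and 0.65 to 1.13 TPM in WT, with Kdr and Emcn at 0 counts. The part of these shifts in the members' values was not tested. In bulk RNA, fewer cells of a type and less RNA per cell cannot be told apart.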

How the data were processed

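The series holds 2 tables of 32793 gene rows. The first gives estimated counts deposited by the authors as whole numbers, without normalization. The second gives TPM deposited by the authors, scaled for transcript length and library size. The submitters' processing notes name Bowtie2, RSEM and mm10. The annotation and the handling of reads that match several genes are not given in the sources used here. The labels' protocols name a kit that keeps strand; whether counting used strand is not given in the sources used here. Groups came from the genotype labels.

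All genes were fitted with edgeR 4.0.16 in R 4.3.3 (quasi-likelihood, robust, TMM factors, filterByExpr, prior count 0.125) on all 5 libraries with no covariate, with Benjamini-Hochberg adjustment over 13501 genes and a threshold of 0.05. The test was planned for counts and was applied unchanged to these estimates. CPM is counts scaled by TMM-adjusted library totals. SE is the log2 fold change over the square root of F. The code was tested on simulated counts. Alternatives were RLE factors, no filter, 10 counts in every library, DESeq2 1.42.0, limma 3.58.1 on log2(TPM + 1) or log2(TPM + 0.1), the replicate number as a block, other count minimums for presence, and each library left out.

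Positions and promoters are those of RefSeq (GRCm38.p6, the assembly also called mm10). Transcripts are those of GENCODE M21, and all 54 members matched both by symbol. Runs of bases and 31-base sequences were found by exact match. The members, gene lists and rules were chosen with earlier results of these data known. Named genes were Zfp976, members without overlap and a log2 fold change of at least 1, the 8 most abundant, those with at least 10 counts in 1 library and at most 3 in another, the 5 with the widest range, their neighbours in a run, and from each list Trim28, Setdb1, called genes and the 3 most abundant. Of the corepressor list 1 such gene is not reported here, and of the marker lists sums and a few markers are given. Other genes, the promoter comparison, the runs and the sums of similar genes were chosen after their values were seen.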

Additional observations from a re-analysis of the deposited data

How the results depend on the processing

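The members called at an adjusted p under 0.05 numbered 0 with RLE factors, 1 with no filter (58 of 19182 genes called) and 3 with DESeq2, and 0 to 2 with a library left out. Every count above 0 includes Zfp976, whose values chose the range. The count was also 0 with 10 counts in every library, which leaves out Zfp975 and Zfp976 before the test, and on both TPM scales, which leave out Zfp976. DESeq2 called 5 of the other Zfp-numbered genes and 1 studied KRAB gene. With a library left out the calls were 0 to 6 of the other Zfp-numbered genes, 0 to 1 studied KRAB genes and 0 to 8 corepressor genes, each highest without NDD replicate 1. That fit called 1207 genes against 12, and assumes that the lone NDD library varies like WT. DESeq2 called 361 genes. Members without overlap numbered 14 to 25 with a library left out, on the 43 to 46 members each fit tested, since fewer libraries overlap less by construction (36.2% to 76.6% of all genes were then without overlap), and the members' median log2 fold change was -0.10 to 0.24. Members present in every library numbered 36 to 40 under the other minimums. For the other shifts the cause was not tested.

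With the replicate number as a block, 33 genes and 0 members were called and the members' median log2 fold change was 0.03. Deviations of same-numbered libraries correlated at 0.013 and 0.30 over 2 numbers, which did not meet the rule set for pairing; the labels do not say whether same-numbered libraries share more than a number. Members with few counts, such as Zfp936, Zfp964 and Zfp981, could not be compared at this depth.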

Other observations

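Zfp955a and Zfp955b, which the symbol rule leaves out by their letter, had 225 and 169 counts and 188 and 158 counts in NDD, and 151, 178 and 176 counts and 126, 150 and 127 counts in WT. Zfp760, a zinc finger gene lying among the chromosome 17 members, had 84 and 134 counts in NDD and 63, 44 and 48 in WT, without overlap and with a log2 fold change of 1.04 (SE 0.39). Zfp30, on the list of studied KRAB genes but too low to enter the fit, had 8 and 15 counts in NDD and 1, 2 and 1 in WT.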
